A study of Mus musculus with 23 samples.

Results

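The hearts of 4 control mice were compared with the spleens of control mice, also 4, which together made up 8 of the 23 arrays of the study. The samples were chosen by their titles alone, which name the organ, the control group and the replicate. All came from male BALB/c mice aged 12 weeks that drank distilled water and ate a normal diet for 6 weeks before an overnight fast. The other 15 arrays came from control livers and from mice that drank oil palm phenolics (OPP, an extract of the oil palm fruit, at 1500 ppm gallic acid equivalent). RNA of whole organs was hybridised to Illumina MouseRef-8 BeadChips, whose scans report an intensity for every probe together with a detection p-value. The organs were rinsed in saline, and the labels do not say which hearts and spleens came from the same mouse. The study chose RNA samples of high integrity for the arrays.

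The mouse heart is built mainly from striated muscle cells that contract without pause and draw their energy largely from the oxidation of fatty acids in densely packed mitochondria. The spleen filters blood: macrophages of its red pulp break down aged red cells and recycle their iron, its white pulp holds B and T lymphocytes, and in the adult mouse it also makes red cells, granulocytes and platelets. The tail of the pancreas lies against the spleen, and the thymus and fat lie next to the heart.

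Values are log2 normalised intensities after background removal, over a range from about the background to 15.34. Differences are heart minus spleen on the log2 scale with the standard error of limma's fit over the 8 arrays. A gene is said to be called where its Benjamini-Hochberg adjusted p was under 0.05, and to be past 2-fold where limma's test against a difference of 1 on the log2 scale also passed at that level. Where no array of an organ detected a probe, the fold is given as a lower bound ("at least"), taken against the lowest signal that the dim arrays could detect. Levels are compared between organs for the same probe, and not between probes. Whole organs were measured, so that fewer cells of a type and less RNA per cell cannot be told apart.

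Some arrays stood apart before any gene was compared. The median background intensity was 51.8 to 55.7 on the hearts and 68.9 to 77.1 on the spleens, without overlap (2-sided exact permutation test, p = 0.0286, the smallest that 4 against 4 arrays can give). Between 9022 and 9785 probes were detected on a heart and between 8318 and 8957 on a spleen. Heart 2 had the count of 9785, against at most 9101 on the other hearts. It also carried T cell genes, described with the T cell results, and all 4 spleens carried genes of the exocrine pancreas. Pearson's r between arrays was 0.988 to 0.994 among hearts, 0.982 to 0.991 among spleens and 0.754 to 0.796 between the organs. The defining markers of heart muscle, Myh6, Tnnt2 and Actc1, lay at 13.69 or more on every heart, and Myh6 and Tnnt2 were detected on no spleen. The defining B cell marker Cd79a was detected on every spleen and on no heart.

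Most of the expressed genome differed between the organs. Of 10289 probes tested, 8738 were called (84.9%), of which 4435 were higher in the heart (43.1% of those tested) and 4303 in the spleen (41.8%). Past 2-fold were 4080 probes (39.7%), 2142 higher in the heart (20.8%) and 1938 in the spleen (18.8%). Every heart array lay above every spleen array for 4230 probes (41.1%), and every spleen array above every heart array for 4081 (39.7%). The median difference over all tested probes was 0.03, with quartiles at -1.0 and 1.10. Over 6 on the log2 scale were 70 probes in each direction. Of the tested probes, 1278 were detected on all 4 hearts and no spleen and 679 on all 4 spleens and no heart, while 6535 were detected on all 8 arrays. A probe detected in only 1 organ could enter the test only through that organ, so list counts below hold for members that passed this filter. Counts past 2-fold are to be read against 20.8% and 18.8%, and counts called against 43.1% and 41.8%. The plot of organ means shows the main groups on these axes.

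**Figure D1:**
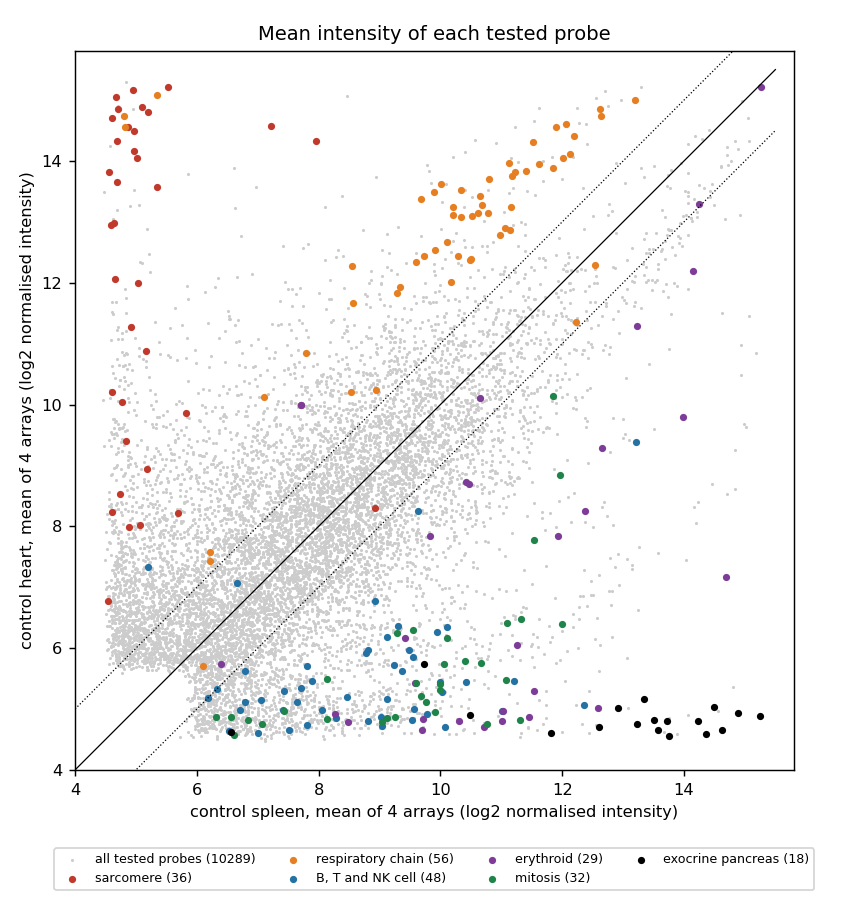
Mean log2 normalised intensity of each of the 10289 tested probes on the 4 control spleens (horizontal axis) and the 4 control hearts (vertical axis), with members of 6 groups of genes in colour, equality as a solid line and a 2-fold difference as dotted lines. Sarcomere genes lie near the top left and genes of the exocrine pancreas near the bottom right, while genes of the respiratory chain run along the upper side of the line of equality.

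The contractile apparatus gave the widest gap on the heart side. Of 16 genes listed for the thick filament, 11 were on the array and tested, and all 11 were past 2-fold higher in the heart, with a median difference of 8.34 (0.03 over all probes). Myl2, the regulatory light chain of ventricular myosin, read 15.02, 15.07, 15.04 and 15.07 on hearts 1 to 4 and 4.53, 4.97, 4.55 and 4.62 on spleens 1 to 4. The hearts lay within 0.05 of each other near the top of the scale, and no spleen detected the probe. Myl2 was thus at least 569.5-fold higher in the heart, with a fitted difference of 10.38 ± 0.10 (limma, adjusted p = 2.76e-13). Myh6, the main myosin heavy chain of the adult mouse heart, was at least 244-fold higher, and Myl3, the essential light chain of the ventricle, at least 446-fold. The atrial light chain Myl7 read 13.68, 13.42, 13.80 and 13.69 on the hearts and was detected on no spleen (at least 216-fold). Myl4, the other atrial light chain, was the one gene of these that every spleen detected, at 7.97, 8.16, 7.6 and 8.12 against 14.28, 14.22, 14.37 and 14.40 in the hearts.

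On the thin filament and the Z disc, which anchors it, 24 of 25 tested genes were past 2-fold higher in the heart (of 36 listed and 30 on the array), with a median of 7.36. Tnnc1, the calcium sensor of the troponin complex, stood at 15.22, 15.16, 15.13 and 15.19 in the hearts and at 4.9, 4.92, 5.42 and 4.59 in the spleens, where no array detected it. It was at least 621-fold higher in the heart, and Tnnt2, which ties troponin to tropomyosin, at least 481-fold. Tcap, the titin cap of the Z disc, was at least 498-fold higher and Actn2, the alpha actinin of the Z disc, at least 386.5-fold. Acta1, the skeletal alpha actin, read 14.86 to 14.92 in the hearts and 4.68, 6.43, 4.64 and 4.63 in the spleens. Only spleen 2 was raised there, and the difference was 9.79 ± 0.35. Cryab, a small heat shock protein that protects desmin and actin filaments, was detected on all 8 arrays, at 14.62, 14.72, 14.39 and 14.55 against 7.54, 7.24, 6.55 and 7.52 (difference 7.36 ± 0.20). The 1 listed gene that ran the other way was Tpm1, the alpha tropomyosin, whose brightest probe had a difference of -0.63 ± 0.10 (adjusted p = 0.000198).

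Promoters of these genes are shown because serum response factor and TEF factors are known to act on muscle genes through the CArG box and the MCAT motif (CATTCC). RefSeq windows from 250 bases before to 50 after the gene start were searched on both strands, and 10 of the 11 tested thick filament genes had one. A CArG box lay in 30.0% of these 10 and in 1.81% of 27025 windows of all genes, and CATTCC in 60% against 16.6%. In the 6102 windows of tested genes the shares were 1.69% and 14.5%. Of the 20 thin filament and Z disc genes with a window, 15% held a CArG box, 40% CATTCC and 20% a MEF2 site (3.70% of all windows, 2.31% of tested genes). Lists outside muscle held them too, such as mast cell genes (CATTCC in 40%, a MEF2 site in 20%) and plasma cell genes (a CArG box in 14.3%). Over all 1262 genes past 2-fold higher in the heart that had a window, the CArG box was in 2.38% and CATTCC in 16.3%. Beside these stand 1.69% and 14.5% of the windows of tested genes, and 1.81% and 16.6% of all windows. The stretches of 170 bases below run from 130 bases before the start to 40 bases after its first base, 5' to 3' on the strand of the gene (GRCm38.p6). Capitals mark CArG boxes and, in Myl7, the CATTCC before it. A match is a description of the letters and does not show that a factor binds there.
Myl7, chr11:5898743-5898912, minus strand: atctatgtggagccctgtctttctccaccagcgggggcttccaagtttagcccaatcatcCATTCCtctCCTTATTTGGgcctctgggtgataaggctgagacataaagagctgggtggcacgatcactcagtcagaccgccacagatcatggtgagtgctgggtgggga
Myl3, chr9:110763548-110763717, plus strand: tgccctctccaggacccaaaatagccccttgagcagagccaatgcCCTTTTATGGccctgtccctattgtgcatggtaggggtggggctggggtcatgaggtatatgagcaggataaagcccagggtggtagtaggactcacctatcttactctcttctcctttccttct
Actc1, chr2:114052836-114053005, minus strand: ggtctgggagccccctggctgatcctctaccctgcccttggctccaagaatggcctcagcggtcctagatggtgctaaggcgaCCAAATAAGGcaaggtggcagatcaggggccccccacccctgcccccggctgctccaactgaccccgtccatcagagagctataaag
Counted from the start, the CArG box began at -61 in Myl7, at -85 in Myl3 and at -47 in Actc1, the cardiac alpha actin. Actc1 read 15.19, 15.34, 15.22 and 15.13 in the hearts and 5.29, 5.71, 5.07 and 6.03 in the spleens, of which 1 detected it.

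Genes for calcium release and reuptake, the steps that set the beat of a muscle cell, lay mostly on the same side. Of 15 tested genes for calcium handling (22 listed), 14 were past 2-fold higher in the heart, with a median of 5.43. Pln, phospholamban, the brake on the calcium pump, read 14.88, 14.88, 14.85 and 14.91 in the hearts and was detected on no spleen (at least 506-fold). The pump itself, Atp2a2, was seen in both organs, at 15.13, 14.98, 15.11 and 15.01 against 8.54, 8.54, 8.48 and 8.29, a difference of 6.6 ± 0.08. Casq2, the calcium buffer of the cardiac reticulum, was at least 55.0-fold higher and Hrc, a second calcium binder of that store, at least 128-fold. All 19 tested genes for ion channels and gap junctions were past 2-fold higher in the heart (median 3.40), among them Kcnk3, a background potassium channel, at least 12.9-fold, and the membrane proteins Popdc2 (5.63 ± 0.14) and Bves (at least 17.7-fold). At the intercalated disc and costamere, which join heart cells to each other and to the matrix, 14 of 18 tested genes were past 2-fold higher in the heart and none in the spleen. Nrap, an actin anchor of the disc, was at least 49.2-fold higher, and Pkp2, plakophilin of the desmosome, at least 22.3-fold.

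Of 10 tested genes for natriuretic and other cardiac hormones and their receptors, all were called higher in the heart and 7 were past 2-fold. Nppb, brain natriuretic peptide, read 13.33, 13.47, 13.59 and 13.58 in the hearts and 4.49, 4.46, 4.45 and 4.50 in the spleens, none of which detected it (at least 194-fold). Corin, the protease that activates natriuretic peptides, was at least 64.0-fold higher, and Chrm2, the receptor through which the vagus nerve slows the heart, at least 5.42-fold. The Nppb promoter is shown because it held matches to several of the motifs searched, here in capitals from 5' to 3': CATTCC read from the other strand, the GATA letters AGATAA (12.7% of all windows) and TATAAA (15.7%), which began at -105, -84 and -31 from the start. In the windows of tested genes AGATAA lay in 8.54% and TATAAA in 9.78%.
Nppb, chr4:147985770-147985939, plus strand: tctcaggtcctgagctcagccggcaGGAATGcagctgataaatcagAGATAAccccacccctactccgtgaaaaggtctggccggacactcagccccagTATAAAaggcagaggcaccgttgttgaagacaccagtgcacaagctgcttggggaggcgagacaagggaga

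**Figure D2:**
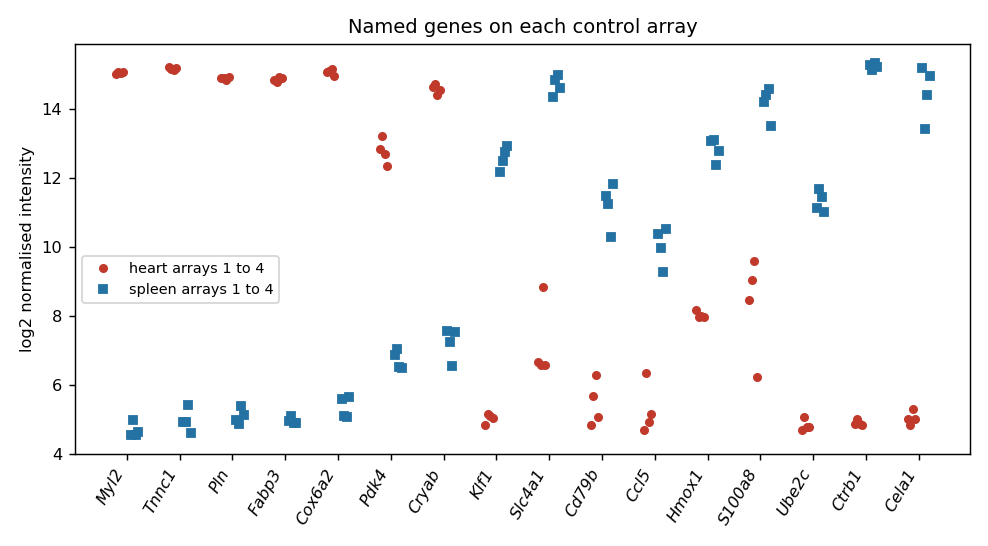
Log2 normalised intensity of 16 named genes on each of the 4 control hearts (red circles) and 4 control spleens (blue squares), in the order of arrays 1 to 4. The first 7 genes lie higher on every heart and the other 9 higher on every spleen; Slc4a1 in heart 3 (8.84), Ccl5 in heart 2 (6.34) and S100a8 in heart 4 (6.23) lie away from the other hearts.

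Genes of mitochondrial respiration were higher in the heart with few exceptions, and the spleen expressed nearly all of them too. For complex I, which takes electrons from NADH, 29 of 31 tested genes were past 2-fold higher in the heart, with a median of 2.58 and each probe detected on at least 2 arrays of either organ. Ndufa5, an accessory subunit, read 13.61, 13.58, 13.73 and 13.55 in the hearts and 9.79, 10.08, 9.93 and 10.23 in the spleens (3.61 ± 0.10). Ndufab1, which doubles as the mitochondrial acyl carrier protein, was the member with the lowest difference and was not called (-0.39 ± 0.21). For complexes II to IV, 23 of 25 tested genes were past 2-fold higher in the heart (median 2.23), and for ATP synthase and adenylate transfer 21 of 25 (median 2.12). Sdhb, the iron-sulphur subunit of complex II, differed by 3.68 ± 0.08 and Atp5g1, a ring subunit of ATP synthase, by 3.13 ± 0.09. Ckmt2, the mitochondrial creatine kinase of muscle, and Ckm, its partner in the cytosol, were detected on no spleen, at least 327-fold and 156-fold higher in the heart.

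Genes for the supply of fuel to these complexes differed as well. All 28 tested genes for fatty acid uptake and beta oxidation were called higher in the heart and 26 were past 2-fold (median 3.30). Fabp3, the fatty acid carrier of the heart cell, stood at 14.83, 14.79, 14.91 and 14.88, and at 4.94, 5.09, 4.89 and 4.89 in the spleens, where it was not detected (at least 496-fold). Cpt1b, which admits long-chain fatty acids to the mitochondria of muscle, was at least 95-fold higher. Acadm, the dehydrogenase of medium chains, read 12.62, 12.58, 12.63 and 12.58 in the hearts and 6.74, 8.14, 7.44 and 7.34 in the spleens (5.19 ± 0.23). In the TCA cycle and at pyruvate dehydrogenase, 21 of 24 tested genes were past 2-fold higher in the heart (median 3.23). The kinases that switch off pyruvate dehydrogenase split: Pdk4, known to be induced by fasting, read 12.84, 13.21, 12.70 and 12.34 in the hearts and 6.87, 7.04, 6.50 and 6.47 in the spleens (6.05 ± 0.19), whereas Pdk3 had the opposite sign (-2.27 ± 0.14). For ketone bodies and branched-chain amino acids, 13 of 16 tested genes were past 2-fold higher in the heart. Oxct1, which activates acetoacetate for burning, differed by 4.27 ± 0.13 and Bdh1, which oxidises hydroxybutyrate, by 3.49 ± 0.18.

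Glycolysis and glycogen genes were also mostly higher in the heart, 21 of 27 tested past 2-fold (median 2.40). Eno3, the muscle enolase, differed by 7.28 ± 0.12 and Ppp1r3c, which targets a phosphatase to glycogen, by 5.25 ± 0.15. The glucose carrier Slc2a3, common in blood cells, ran the other way at -2.93 ± 0.23. Mb, myoglobin, the oxygen store of muscle, was at least 518-fold higher in the heart, with 14.92, 14.95, 14.84 and 14.95 on its arrays. Sod2, the superoxide dismutase of mitochondria, differed by 2.86 ± 0.08 in favour of the heart and Gpx1, the cellular glutathione peroxidase, which red cells hold in quantity, by -3.12 ± 0.17. Of 62 tested proteins of the mitochondrial ribosome, 58 were called higher in the heart and 25 were past 2-fold (median 1.11), led by Mrpl42 (2.99 ± 0.12). The cytosolic ribosome had the opposite sign: 62 of 64 tested proteins were called higher in the spleen, 21 of them past 2-fold, with a median of -0.98. Median scaling in place of quantile normalisation gave 58 called higher in the spleen, 10 past 2-fold, and a median of -0.83.

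Many enzymes and structural proteins exist in related forms, and 43 such pairs were listed, 32 of which had both genes tested. Named first is the form known from heart or muscle or, in pairs such as Rac1 and Rac2, the constitutive form. The second is the form known from blood cells or from most cells. Not every pair is thus a muscle form against a general one. In 31 of the 32 pairs the first gene had the larger difference, with medians of 3.58 for the first genes and -1.05 for the second. In 15 pairs the first was called higher in the heart and the second in the spleen, in 7 both were higher in the heart, in 2 both in the spleen, and in none was the first higher in the spleen and the second in the heart. In the other 8 pairs at least 1 gene was not called. Of the 7, the calls of Slc2a1 (0.35 ± 0.15) and Ckb (0.36 ± 0.13), the general forms of the glucose carrier and of creatine kinase, were lost under 10 and 5 of 20 alternatives. The forms were sorted as first and second with earlier results known, and the counts describe these pairs only.

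The subunits of cytochrome oxidase show the contrast within 1 enzyme. Cox6a2, the form of heart and skeletal muscle, read 15.07, 15.11, 15.16 and 14.96 in the hearts and was detected on no spleen (at least 579.9-fold), while its general counterpart Cox6a1 read 11.23 to 11.45 in the hearts and 12.09 to 12.45 in the spleens (-0.86 ± 0.10). Cox8b was at least 455.5-fold higher in the heart and Cox7a1 at least 402-fold. Cox8a, the general form beside Cox8b, had a difference of -0.24 ± 0.07 (adjusted p = 0.00939), whose sign turned with median scaling (0.15, adjusted p = 0.402). Lactate dehydrogenase had both subunits higher in the heart, Ldhb by 7.92 ± 0.09 and Ldha by 1.32 ± 0.10. For ribosomal protein L3, Rpl3l, the striated muscle form, was at least 167.5-fold higher in the heart, and Rpl3, the general form, was higher in the spleen (-2.16 ± 0.10). The calcium pumps of the reticulum split in the same way, since Atp2a3, the pump of blood cells, read 8.63, 9.33, 8.69 and 8.30 in the hearts and 11.45, 11.20, 10.97 and 11.23 in the spleens (-2.47 ± 0.20). Of the Rac GTPases, Rac1, found in most cells, had a difference of -0.09 ± 0.11 and was not called, and Rac2, of blood cells, had one of -4.56 ± 0.24. The exception among the 32 pairs was aspartate aminotransferase, where the cytosolic Got1 (3.57 ± 0.08) differed by more than the mitochondrial Got2 (2.88 ± 0.10).

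**Figure D3:**
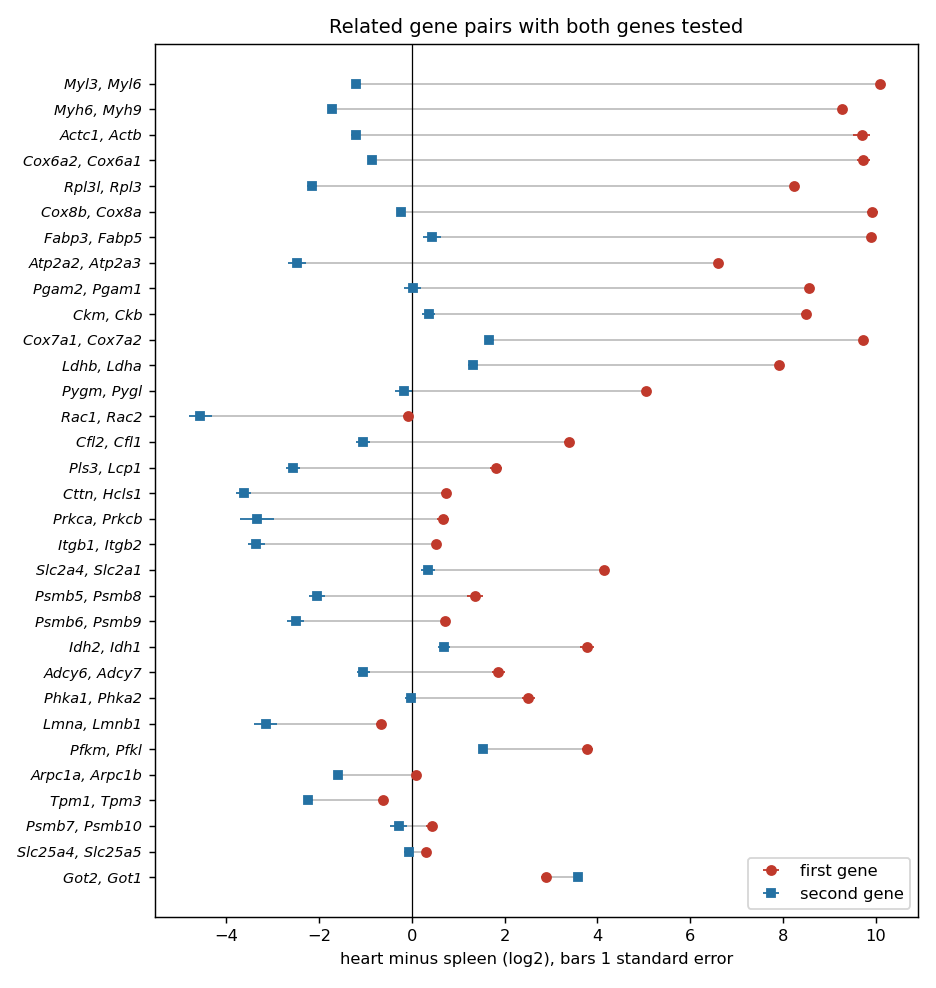
Heart minus spleen difference (log2, bars 1 standard error) of both genes in each of the 32 pairs with both tested. The first gene (the heart, muscle or constitutive form) is a red circle. The second gene (the form of blood cells or most cells) is a blue square. The circle lies to the right in 31 pairs; in the pair of Got2 and Got1 it lies to the left.

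Transcription factors also divided by organ. Of 26 tested factors listed for the heart, 22 were past 2-fold higher there (median 2.39), among them Gata6 (4.37 ± 0.18), which read 10.99, 10.92, 11.24 and 10.92 against 7.07, 6.84, 6.21 and 6.45. Ppargc1a, the coactivator that drives mitochondrial genes, was at least 10.2-fold higher, Esrrb, a related nuclear receptor, at least 8.47-fold and Myocd, the partner of serum response factor, at least 9.54-fold. Nrf1, which switches on genes of the respiratory chain, was on this list but read 6.88 to 7.09 in the hearts and 9.48 to 9.73 in the spleens (-2.62 ± 0.09). Of 31 tested factors listed for the spleen, 21 were past 2-fold higher there (median -2.21), led by Klf1, the switch of the red cell programme, which is described next, and by Nfe2, a factor of platelet formation, at least 55.3-fold higher in the spleen.

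Genes of red cell formation were far higher in the spleen. Of 29 tested erythroid genes (37 listed), 24 were past 2-fold higher in the spleen (median -4.10), against 1 on the heart side. Klf1 read 4.83, 5.14, 5.08 and 5.03 in the hearts, none of which detected it, and 12.16, 12.49, 12.76 and 12.92 in the spleens (at least 122-fold higher). Slc4a1, the band 3 anion exchanger of the red cell membrane, read 6.66, 6.56, 8.84 and 6.58 in the hearts and 14.34, 14.83, 14.98 and 14.60 in the spleens (-7.53 ± 0.45). Heart 3 stood apart for Slc4a1, and the median of the list was 7.37 on heart 3 against 5.95 to 6.25 on the other hearts. Car1 and Car2, the carbonic anhydrases of red cells, differed by at least 55.5-fold and by -6.23 ± 0.24. Of the globins, Hba-a1, an alpha globin, read 15.34, 15.27, 15.01 and 15.22 in the hearts and 15.22, 15.34, 15.27 and 15.27 in the spleens and was not called (-0.06 ± 0.09), at the top of the scale. Hbb-b2, a beta globin, read 13.02, 13.05, 14.01 and 13.07 in the hearts against 14.19 to 14.34 in the spleens (-0.96 ± 0.20). Both globins were picked for mention after their values were seen. Tmod1, the tropomodulin that caps actin in red cells and in muscle, was the 1 erythroid gene past 2-fold higher in the heart (2.29 ± 0.14).

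Alas2, the first enzyme of haem synthesis in red cells, was also picked afterwards, for its promoter. It read 9.68, 9.32, 10.70 and 9.50 in the hearts and 13.75, 14.17, 14.25 and 13.76 in the spleens (-4.18 ± 0.27). The GATA letters AGATAA, known as a site of the erythroid factor GATA1, lay in 28.6% of the 21 erythroid windows, 12.7% of all and 8.54% of those of tested genes. These letters were as common in other lists, such as neutrophil (28.6%) and MHC class II genes (30.8%). They are capitals below, read from the other strand, and began at -86 from the start of Alas2.
Alas2, chrX:150547287-150547456, plus strand: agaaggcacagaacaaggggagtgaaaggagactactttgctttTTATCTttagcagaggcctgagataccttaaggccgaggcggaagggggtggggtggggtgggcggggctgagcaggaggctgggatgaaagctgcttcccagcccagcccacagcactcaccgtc

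Macrophages that take up red cells gave 19 of 27 tested genes past 2-fold higher in the spleen (median -2.12). Hmox1, which opens the haem ring, read 8.16, 7.95, 7.98 and 7.96 in the hearts and 13.07, 13.09, 12.38 and 12.79 in the spleens (-4.82 ± 0.15). Blvrb, a biliverdin reductase, differed by -4.09 ± 0.11 and Slc40a1, ferroportin, which exports the iron, by -3.67 ± 0.15. Marco, a scavenger receptor of marginal zone macrophages, was at least 15.6-fold higher in the spleen. Vsig4, a complement receptor of resident macrophages, was past 2-fold on the other side, at 8.26, 7.92, 8.05 and 7.97 in the hearts and undetected in the spleens (at least 4.45-fold).

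Granule and calprotectin genes of neutrophils and their precursors were among the clearest spleen genes, with 23 of 25 tested past 2-fold and a median of -3.99. Mpo, myeloperoxidase, read 12.57, 12.39, 13.57 and 11.70 in the spleens and was detected on no heart (at least 119.7-fold). Ltf, lactoferrin, and Camp, cathelicidin, differed by -7.14 ± 0.35 and -6.97 ± 0.33. S100a8, a subunit of calprotectin, was seen in every heart, at 8.44, 9.02, 9.59 and 6.23, and read 14.21, 14.39, 14.57 and 13.49 in the spleens (-5.84 ± 0.61). Heart 4 and spleen 4 were the lowest of their organs for S100a8, and S100a9 behaved alike. The PU.1 letters GAGGAAGT lay in 28.6% of 21 neutrophil windows, in 3.69% of all and in 4.08% of those of tested genes. Elane, neutrophil elastase, is shown with them in capitals, beginning at -85 from the start. It was picked after its values were seen and read 10.25, 9.98, 11.74 and 9.39 in the spleens, with no heart detecting it.
Elane, chr10:79886182-79886351, plus strand: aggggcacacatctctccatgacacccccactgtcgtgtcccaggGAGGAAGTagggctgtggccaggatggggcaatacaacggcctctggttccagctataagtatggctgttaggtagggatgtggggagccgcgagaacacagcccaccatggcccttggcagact

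B cell genes were past 2-fold higher in the spleen for 22 of 23 tested (median -3.76), and Ebf1, a B lineage factor, was not called (0.41 ± 0.23). Cd79a, which signals for the B cell receptor, read 4.59, 4.67, 4.89 and 4.65 in the hearts and 10.17, 9.80, 9.82 and 10.47 in the spleens (at least 21.2-fold). Its partner Cd79b read 4.84, 5.66, 6.28 and 5.06 in the hearts and 11.47, 11.24, 10.28 and 11.83 in the spleens (-5.74 ± 0.37). Hearts 2 and 3 were the higher hearts, and the same pair stood out for antibody genes. Of 203 immunoglobulin probes on the array 141 were tested and 137 were past 2-fold higher in the spleen, none in the heart, with a median of -3.96. The medians of these 141 probes were 4.86, 5.62, 5.75 and 4.81 on hearts 1 to 4, which detected 10, 75, 73 and 12 of them, and 8.92 to 10.02 on the spleens. Many of these probes match near-identical gene segments, so they are not independent. For plasma cells and secretion, 11 of 16 tested genes were past 2-fold higher in the spleen, among them Jchain, the joining chain of secreted antibody (at least 41-fold), and Mzb1, an antibody chaperone (-5.73 ± 0.29). Herpud1, of the stress response of the reticulum, was the exception, at 1.65 ± 0.22.

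T and NK cell genes were higher in the spleen, by counts that depended on heart 2. Of 25 tested (47 listed, 40 on the array), 16 were past 2-fold higher in the spleen, with a median of -2.44. Without heart 2 there were 22 and the median was -3.17, while leaving out any other single array gave 14 to 16. Cd3e, a chain of the T cell receptor complex picked after its values were seen, read 4.79, 8.92, 4.81 and 4.9 in the hearts and 9.65, 9.62, 9.05 and 9.85 in the spleens (-3.69 ± 0.81). Heart 2 alone detected it. Cd8b1, of the CD8 coreceptor and chosen likewise, read 10.76 on heart 2, above all 4 spleens (8.64 to 9.90), and 4.72 to 5.0 on the other hearts, and its call (-2.94 ± 1.17, adjusted p = 0.0372) was lost when any array other than heart 2 was left out. The median of the T and NK list was 6.71 on heart 2 against 4.86 to 4.91 on the other hearts, and its summed linear intensity ran from 993.6 to 6543 over the hearts and from 7417 to 12550 over the spleens. Nkg7, of cytotoxic granules, was undetected in all hearts, heart 2 included, and at least 10.3-fold higher in the spleen. Ccl5, a chemokine of T and NK cells, read 4.69, 6.34, 4.91 and 5.15 against 10.36, 9.97, 9.26 and 10.51 (-4.75 ± 0.37). Gzmm, granzyme M, was the 1 member past 2-fold higher in the heart, at 7.16, 7.24, 7.70 and 7.22 with no spleen detecting it (at least 2.70-fold). The part of the T cell genes of heart 2 in the other results was not tested, beyond the counts without that array.

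**Figure D4:**
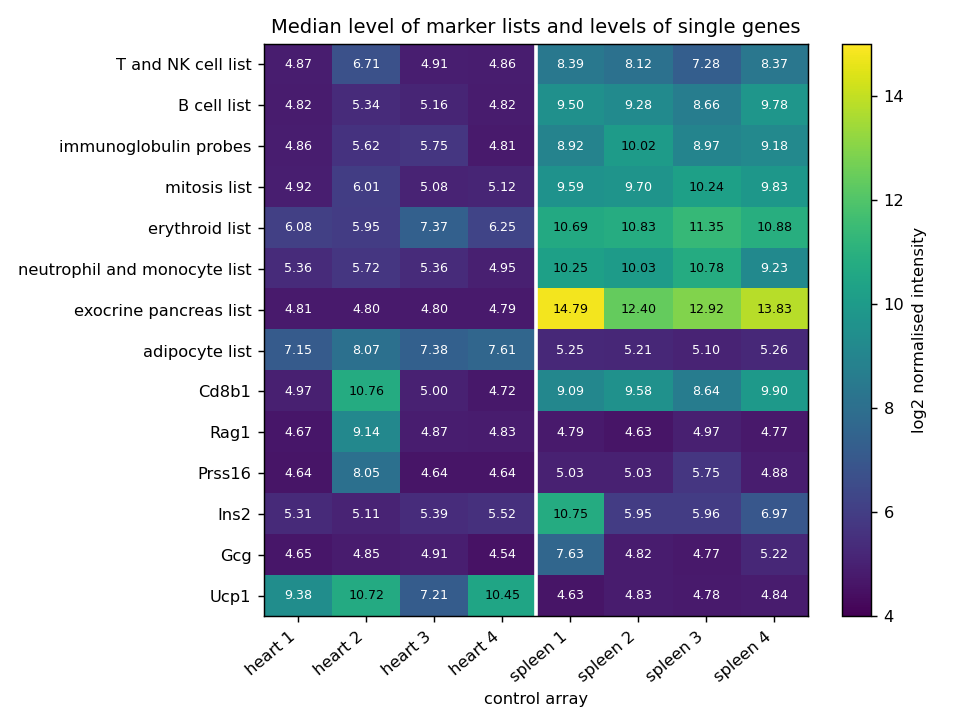
Median log2 normalised intensity of marker lists and of the immunoglobulin probes, and the level of 6 single genes, on each control array (columns, hearts then spleens; colour and printed values on the same scale). Heart 2 is raised for the T and NK cell list, Cd8b1, Rag1 and Prss16, spleen 1 for Ins2 and Gcg, and all 4 spleens for the exocrine pancreas list.

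Genes of antigen presentation were mostly higher in the spleen in both classes. Of 21 tested genes for MHC class II and dendritic cells, 16 were past 2-fold (median -2.92). H2-Aa, a class II alpha chain, read 5.90, 7.14, 6.31 and 5.50 in the hearts and 11.57, 11.59, 10.31 and 11.20 in the spleens (-4.95 ± 0.37), and H2-Eb1 differed by -4.51 ± 0.31. For class I and the immunoproteasome, 8 of 13 were past 2-fold (median -1.65). The catalytic sites of the proteasome come in an immune and a standard form, and they split: Psmb9 (-2.50 ± 0.18) and Psmb8 (-2.05 ± 0.17), the immune forms, were higher in the spleen, and their standard counterparts Psmb6 (0.72 ± 0.07) and Psmb5 (1.36 ± 0.17) in the heart. At the remaining site Psmb7 was higher in the heart (0.42 ± 0.12) and Psmb10 was not called (-0.28 ± 0.18). Of 30 tested genes of the core proteasome, these standard forms included, 1 was past 2-fold in each direction, Psmb1 in the heart and Psma5 in the spleen.

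Genes of DNA replication and mitosis were higher in the spleen. All 32 tested genes for mitosis were past 2-fold higher in the spleen, with a median of -4.26, and so were 28 of 33 for DNA replication (median -3.62). Ube2c, which helps to destroy cyclins at the end of mitosis, read 4.67, 5.07, 4.78 and 4.77 in the hearts, undetected, and 11.13, 11.67, 11.45 and 11 in the spleens (at least 50.4-fold). Ccna2, cyclin A, was at least 34.6-fold higher in the spleen. Rrm2, which makes deoxynucleotides, read 5.23, 6.61, 5.16 and 5.16 in the hearts and 10.63, 10.80, 11.30 and 10.89 in the spleens (-5.36 ± 0.31). Birc5, survivin, read 4.93, 6.48, 5.26 and 5.23 against 10.79, 10.89, 11.47 and 11.17 (-5.60 ± 0.30). Heart 2 was the highest heart for each of these 4 genes and the only one that detected Rrm2 and Birc5, and the median of the mitosis list was 6.01 there against 4.92 to 5.12. Without heart 2, 31 mitosis and 28 replication genes were past 2-fold. Replication-dependent histone genes were among the largest spleen differences of probes detected on all 8 arrays. H2ac22, a histone H2A gene, read 7.21, 10.64, 8.59 and 8.32 in the hearts and 14.23, 14.57, 14.66 and 14.39 in the spleens (-5.77 ± 0.57), and H2ac10, H2ac12, H2ac13 and H2ac24 were similar at -5.31 to -5.61. These histone genes are near-identical in sequence, and their probes may read each other's transcripts.

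The promoters of mitosis genes are shown for the letters many of them share. The cell cycle homology region TTTGAA lay in 80.0% of the 25 windows of the mitosis list and in 20.2% of all, and CCAAT in 68.0% against 41.1%. For DNA replication, TTTGAA was in 13.3% of 30 windows and CCAAT in 60%, and the E2F letters TTTCCCGC in 13.3% against 1.24% of all. In the windows of tested genes TTTGAA lay in 14.3%, CCAAT in 43.3% and TTTCCCGC in 2.18%. The list with the next highest share of TTTGAA was the fibroblast list (37.5%), and CCAAT was as common in lists of other kinds, such as the liver plasma list (80.0%). Ube2c and Cdk1 are shown with both motifs in capitals, in either orientation (TTCAAA and ATTGG are the other strand).
Ube2c, chr2:164769799-164769968, plus strand: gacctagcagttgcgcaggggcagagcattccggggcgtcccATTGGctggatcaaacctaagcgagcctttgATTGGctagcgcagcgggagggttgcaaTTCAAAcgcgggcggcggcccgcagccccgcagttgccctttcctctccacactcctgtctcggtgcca
Cdk1, chr10:69352873-69353042, minus strand: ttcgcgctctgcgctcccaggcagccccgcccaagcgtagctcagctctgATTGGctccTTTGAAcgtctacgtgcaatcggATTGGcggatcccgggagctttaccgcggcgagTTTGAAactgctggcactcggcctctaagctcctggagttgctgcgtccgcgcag
In Ube2c CCAAT began at -88 and -57 and TTTGAA at -29 from the start. In Cdk1 CCAAT began at -80 and -48 and TTTGAA at -71 and -15. Cdk1, the kinase that drives entry into mitosis, was chosen after its values were seen and read 5.15, 6.02, 5.10 and 5.41 in the hearts and 9.36, 9.61, 9.94 and 9.46 in the spleens (-4.17 ± 0.21).

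Signalling and motility genes of leukocytes were past 2-fold higher in the spleen for 35 of 36 tested (median -3.06), such as Ptprc, the CD45 phosphatase, which read 5.25, 7.37, 5.63 and 5.13 in the hearts and 11, 10.91, 10.50 and 10.26 in the spleens (-4.83 ± 0.44). Interferon-induced genes were past 2-fold for 14 of 24 tested (median -1.60). Rsad2, the antiviral viperin, was expressed in both organs, at 7.99, 8.06, 9.17 and 8.08 against 12.32, 13.01, 12.54 and 12.71 (-4.32 ± 0.26). Splicing factors were higher in the spleen for 31 of 40 called, 17 past 2-fold (8 with median scaling), with a median of -1.06. The 3 splicing genes past 2-fold on the heart side were Snrpn (4.73 ± 0.22), which brain and heart express in place of its general relative, Rbfox2 (at least 3.29-fold) and Mbnl2 (2.00 ± 0.11), regulators of muscle exons.

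For platelets and their parent cells, 16 of 22 tested genes were past 2-fold higher in the spleen (median -2.03), and 7 with no background correction. Ppbp, a platelet chemokine, read 6.26, 6.03, 6.22 and 5.48 in the hearts and 11.22, 9.75, 10.28 and 10.19 in the spleens (-4.36 ± 0.29). Of 18 tested genes for the stroma and sinusoids of the spleen, 10 were past 2-fold higher there: Stab2, a scavenger receptor of sinus endothelium, at least 14-fold, Coch, a secreted matrix protein, at least 10.4-fold, and Ccl19, which draws T cells into the white pulp, at least 9.73-fold. In this list 3 genes were past 2-fold higher in the heart, namely Des, the desmin of muscle (4.04 ± 0.14), Lyve1, a marker of lymphatic vessels (at least 7.72-fold), and Stab1 (at least 2.17-fold), a relative of Stab2. Among chemokines and their receptors, 18 of 31 tested were past 2-fold higher in the spleen. In the heart 4 were, or 2 with no background correction. Ccl8, a monocyte chemokine and 1 of the 4, read 8.23, 7.75, 8.34 and 6.28 in the hearts and was undetected in the spleens (at least 3.38-fold).

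Support cells of the heart were seen through their own genes. Of 37 tested genes for matrix and basement membrane, 21 were past 2-fold higher in the heart and none in the spleen (median 1.98), and of 15 for fibroblasts 11, or 7 with no background correction. Lum, the collagen-binding lumican, read 10.76, 10.54, 10.46 and 10.87 in the hearts and was undetected in the spleens (at least 27.1-fold). Dcn, decorin, was present in both, at 14.08, 14.07, 13.75 and 13.88 against 10.18, 10.04, 8.77 and 10.09 (4.17 ± 0.28). Endothelial genes divided, with 14 of 25 past 2-fold higher in the heart and 2 in the spleen. Meox2, a homeobox factor of heart and muscle capillaries, was at least 8.61-fold higher in the heart, whereas Aqp1, a water channel that red cells also carry, and Plvap, of the diaphragms of fenestrated vessels, were higher in the spleen (-1.94 ± 0.14 and -1.90 ± 0.11). Lysosomal genes took both sides, 4 of 32 past 2-fold in the heart and 8 in the spleen (5 with no background correction), beside 20.8% and 18.8% of all tested probes. Smpd1, acid sphingomyelinase, was at least 8.32-fold higher in the heart, and Ctss, the cathepsin of antigen-presenting cells, was higher in the spleen (-2.92 ± 0.12).

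**Figure D5:**
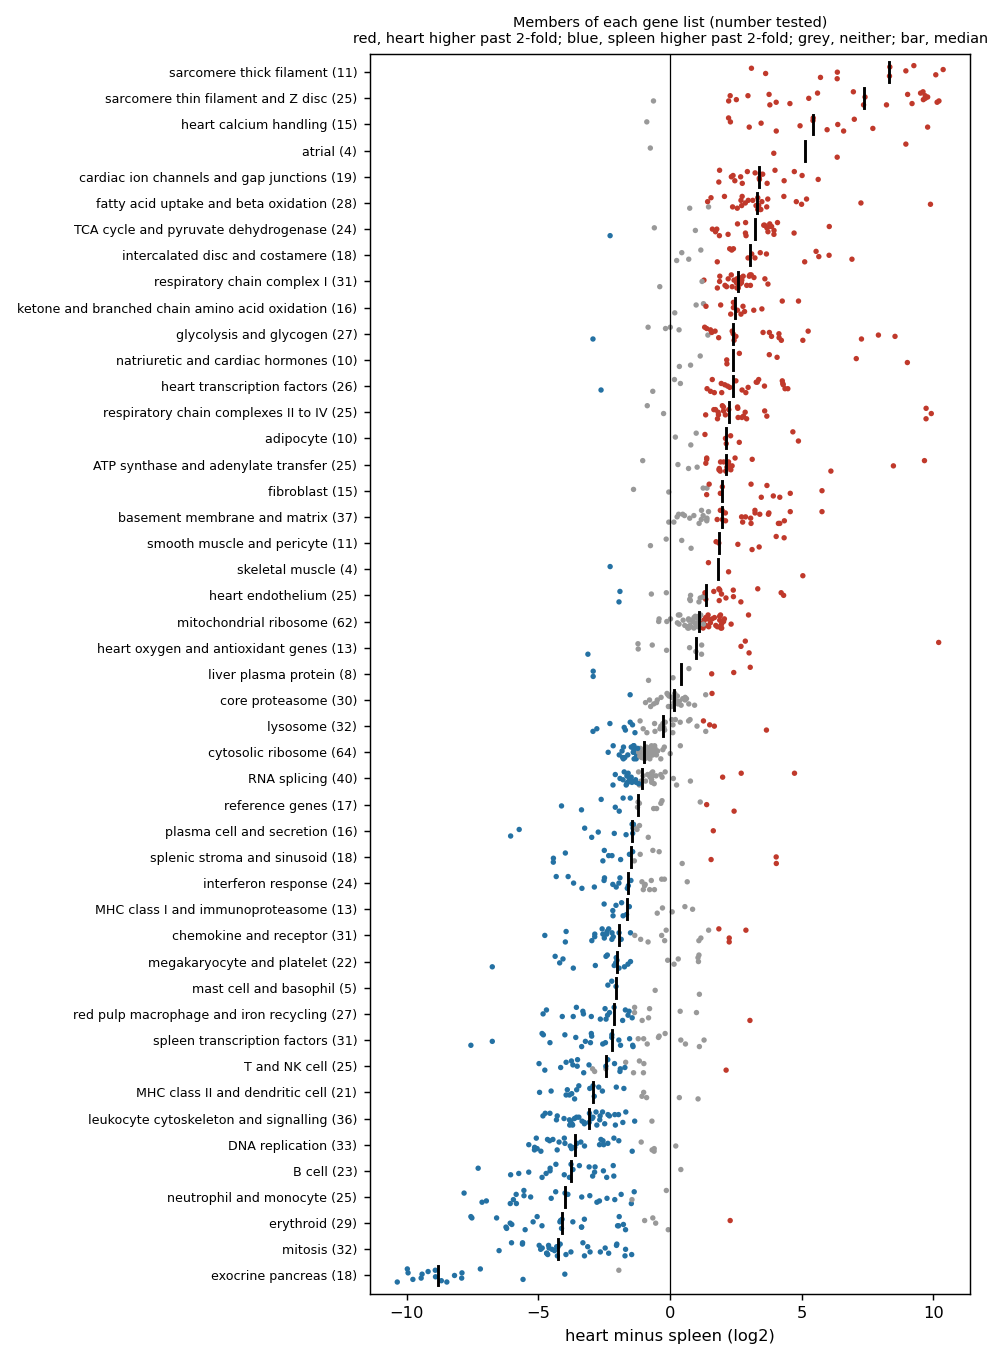
Heart minus spleen difference (log2) of each tested member of the 47 gene lists, ordered by the median of the list (black bar), with the number tested in parentheses. Red points are past 2-fold higher in the heart, blue points past 2-fold higher in the spleen and grey points neither; exocrine pancreas (median -8.80) and sarcomere thick filament (8.34) are the ends of the scale.

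Digestive enzymes of the pancreas were the largest differences on the spleen side of all lists. Of 18 tested genes (25 listed, 19 on the array), 17 were past 2-fold higher in the spleen, with a median of -8.80, and 16 were detected on no heart. Ctrb1, chymotrypsinogen, read 15.27, 15.13, 15.34 and 15.22 in the spleens and 4.85, 5.01, 4.85 and 4.83 in the hearts (at least 768-fold higher). Cela1, an elastase, read 15.19, 13.42, 14.39 and 14.96 in the spleens (at least 457-fold), and Prss1, a trypsinogen, 14.84, 13.27, 13.83 and 14.98 (at least 381.5-fold). Spleen 2 was the lowest for Cela1 and Prss1. The median of the list was 14.79, 12.40, 12.92 and 13.83 on spleens 1 to 4 and 4.79 to 4.81 on the hearts, and its summed linear intensity ran from 514.3 to 552.9 over the hearts and from 151500 to 458600 over the spleens. Ins2, insulin of the islets, was picked after its values were seen. It read 10.75 on spleen 1 and 5.95, 5.96 and 6.97 on spleens 2 to 4, and was not called (-2.08 ± 0.90, adjusted p = 0.0512). Without spleen 1, 17 of 17 tested genes of the pancreas list were past 2-fold, with a median of -8.45, and Ins2 was called (-0.99, adjusted p = 0.00415). The part of pancreas RNA in the other spleen results was not tested. The stretches of Cela1 and of Try4, another trypsinogen (at least 504-fold), are shown with TATAAA in capitals, which began at -27 and -31 from their starts. TATAAA lay in 33.3% of 15 pancreas windows, 15.7% of all, 9.78% of those of tested genes and 37.5% of the fibroblast windows.
Cela1, chr15:100687881-100688050, minus strand: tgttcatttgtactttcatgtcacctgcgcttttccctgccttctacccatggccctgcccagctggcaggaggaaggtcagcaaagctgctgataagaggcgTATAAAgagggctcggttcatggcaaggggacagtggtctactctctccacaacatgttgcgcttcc
Try4, chr6:41302142-41302311, plus strand: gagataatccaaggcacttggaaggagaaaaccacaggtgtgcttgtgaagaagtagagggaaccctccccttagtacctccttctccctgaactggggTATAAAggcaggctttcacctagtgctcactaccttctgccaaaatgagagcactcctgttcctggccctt

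Fat genes were higher in the heart. Of 10 tested adipocyte genes, 7 were past 2-fold higher in the heart, but 4 without heart 3, 5 without heart 2 or spleen 3, 3 with no background correction or an offset of 50, and 4 with array weights. Ucp1, the uncoupling protein that lets brown fat make heat, read 9.38, 10.72, 7.21 and 10.45 in the hearts and was undetected in the spleens (at least 11.7-fold). Cidea, a lipid droplet protein of the same tissue, varied less, at 9.38, 9.79, 9.72 and 9.53 (at least 13.1-fold). Of the other genes looked at for brown fat, Slc36a2 (2.63) was higher in the heart too. So were Cox7a1 and Ppargc1a, but these were listed above as a heart or muscle form and a heart factor. They do not single out fat. Dio2 differed by 1.04 and Elovl3 was detected on no array. Adipoq, adiponectin, read 7.34, 9.43, 9.08 and 8.21 in the hearts and 6.56, 6.29, 5.25 and 6.74 in the spleens (2.31 ± 0.46). The summed linear intensity of the list ran from 3083 to 7612 over the hearts and from 1184 to 2763 over the spleens. The order of the hearts differed between Ucp1 and Adipoq, and the part of fat in the other heart results was not tested. Of 8 tested genes of the list for plasma proteins of the liver, 3 were past 2-fold higher in the heart. Among them was Cyp2e1 (3.05 ± 0.53), a cytochrome P450 enzyme and not itself a plasma protein. In the spleen 2 were, Serpina1a and Serpina1b, near-identical protease inhibitors (-2.92 ± 0.42 and -2.92 ± 0.32).

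Genes often used as references differed too. Of 17 tested, all were called (14 with median scaling), beside 84.9% of all tested probes (79.2% with median scaling). Past 2-fold were 2 higher in the heart and 7 in the spleen, with a median of -1.21. Gapdh, the glycolytic enzyme, read 15.04, 15.13, 15.27 and 15.16 in the hearts and 12.42, 12.73, 12.90 and 12.79 in the spleens (2.44 ± 0.11). Actb, beta actin, read 13.21, 13.36, 13.19 and 13.37 against 14.27, 14.66, 14.47 and 14.57 (-1.21 ± 0.10), and Tfrc, the transferrin receptor, which young red cells carry in quantity, differed by -3.36 ± 0.21. Hprt had the smallest called difference of the list, -0.30 ± 0.11 (adjusted p = 0.0217), and was not called with median scaling (-0.03, adjusted p = 0.903). Gusb (-0.35 ± 0.15, adjusted p = 0.0499) was not called under 11 of 20 alternatives, with adjusted p up to 0.229. For 4 genes, Acin1, Cyrib, Fuom and Myl12b, separate probes were past 2-fold in opposite directions. In Fuom, a fucose mutase, 1 probe differed by 2.83 ± 0.21 and another by -2.33 ± 0.13.

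The same comparison in the 4 hearts and 4 spleens of OPP mice, which share no array with the controls, gave 8971 of 10331 probes called (86.8%), 41.5% past 2-fold. Of the 8565 control calls that were tested there, 8246 were called the same way (96.3%), 319 were not called and none was called the opposite way. Of 4058 control differences past 2-fold, 3822 were past 2-fold the same way (94.2%). The organ difference itself was compared between control and OPP mice with limma's interaction term. Of 10289 probes 0 were called (smallest adjusted p = 0.503), with 674 at an unadjusted p under 0.05. With no true difference a share of about 0.05 would fall under that threshold. With 4 arrays a group, the absence of calls does not show that the organ difference was the same in both.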

How the data were processed

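Total RNA of whole organs was labelled as biotin cRNA and hybridised to Illumina MouseRef-8 arrays of 24048 probes. The authors' deposited tables held a raw intensity and a detection p-value per probe and array, exported from BeadStudio 1.5.1.3 per the submitters' processing notes, with no normalisation. Their series values, also deposited as intensity after background subtraction and rank-invariant normalisation, served as an alternative only. The 8 control arrays were corrected with limma's nec from the detection p-values (offset 16), log2 transformed and quantile normalised (R 4.3.3, limma 3.58.1, Python 3.11.15). A probe was tested where 3 or more arrays of the same organ had a detection p below 0.01, using lmFit and eBayes with a variance trend. The number of arrays limits the precision. The paper describes the arrays of a condition as biological replicates, and the labels add only a replicate number. The p-values set the organ difference against the spread between arrays of the same organ.

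Per the platform annotation, 19397 probes had 1 gene symbol and 0 had several. Another 78 were named through the study's published list of genes changed by OPP, so only probes on that list could gain a name this way. A gene is represented by its brightest tested probe. Genes were named by rule: the 12 in each direction with the largest 2-fold calls detected on all 8 arrays, the 8 in each direction with the largest bound, up to 4 per list in its main direction and 3 against it, every gene of the pairs and reference list, and genes whose probes disagreed. Ndufab1, Ebf1, the immature T cell and islet genes and those so described in the text were chosen after their values were seen, and 1 gene that the rule named is not reported here. Members, lists and pairs were chosen with earlier results of these data known. In simulated data with the spread of these 10289 probes, 10089 had no true difference and each size of change had 50 probes. Called were 44% of changes of 0.5 on the log2 scale, 78% of changes of 1 and 98% of changes of 2, with 0 in the wrong direction. Past 2-fold were 2% of changes of 1 and 90% of changes of 2. In the data 84.9% of probes were called, so these shares need not hold there. Promoter letters come from RefSeq (GRCm38.p6). Alternatives were median scaling, the authors' values, all 16 arrays of both organs in 1 fit, no background correction, an offset of 50, other filters, array weights, no trend, a replicate block, a plain t-test per probe, and leaving out arrays; leaving out heart 2 and spleen 1 together was added after the data were seen. The labels give no chip or scan day, so a chip that held 1 organ and the organ cannot be told apart.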

Additional observations from a re-analysis of the deposited data

Results flagged for a closer look

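Within an organ, 50 of 504 sets of 4 values had a single array far from the other 3, by more than Dixon's critical ratio of that gap to the whole range (9.92%). Chance gives about 1 in 20 such sets, and some genes were added because they had been seen to stand apart, so the share is not a test. Heart 2 held 19 of the 50, spleen 1 and spleen 3 held 7 each, heart 3 held 6, and the other arrays held 1 to 4 each. All levels are log2 normalised intensities.

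Genes of immature T cells made up much of the list for heart 2. Rag1, which cuts antigen receptor genes, read 9.14 there against at most 4.87 on the other hearts and was detected on no spleen, and Prss16, a protease of the thymus cortex, read 8.05 against 4.64. Arpp21 read 8.36, Endou 6.87, Themis 6.25, Dntt, which adds bases at receptor joints, 5.94, and Satb1 10.97. The T cell genes Cd3e (8.92) and Cd8b1 (10.76) were high on the same array. The 16 genes listed for immature T cells also held genes of the thymus epithelium, namely Prss16, Foxn1 and Psmb11. With Cd8b1 and Prss16 counted, 8 of the 16 stood high on heart 2. Of the other 8, Rag2, Ccr9, Foxn1, Psmb11, Tdgf1 and Cd4 were detected on no heart, and Ptcra and Cd1d1 did not stand apart on heart 2. Heart 2 was also high for the replication genes Cdc6 (6.40), Cdt1 (6.58), Mcm5 (7.64) and Rrm2 (6.61), for Arhgap45 of leukocytes (7.54) and Ifi47 of the interferon response (7.39), and for its number of detected probes (9785). It was low for Psmb5 (10.39), Sdhb (13.19) and Suclg1 (11.06).

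Heart 3 was high for Slc4a1 (8.84) and Hbb-b2 (14.01) of red cells, Rsad2 (9.17), Gzmm (7.70) and its background intensity (55.7), and low for Oxct1 (12.06). Heart 1 was high for Hmox1 (8.16). Heart 4 was high for Mdh1 (11.56), Pdk3 (6.24) and Ptcra (5.80) and low for Cox8b (14.57).

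Spleen 1 was high for the gut and islet hormones Gcg (7.63), Iapp (6.87) and Pyy (6.07), and for Idh2 (11.08), Fuom (6.99), Prkca (6.03) and Tacc2 (6.59). Sst, listed with the islet genes, read 6.62 there without passing the ratio. Ppy and Pdx1, also listed with them, were detected on no array. Spleen 2 was high for Acta1 (6.43) and Idh1 (8.30) and low for Psmb1 (7.36) and Arpp21 (5.85). Spleen 3 was high for Nusap1 (12.37), Pgk1 (11.11) and Gpx3 (9.89) and low for Dcn (8.77), Gm2a (10.49), Ifi47 (9.89) and Satb1 (9.30). Spleen 4 was high for Bdh1 (7.04) and Cd4 (6.31).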

How the results depend on the processing

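Of 5760 values of the 289 named genes under 20 alternatives, 5691 kept their direction and their side of the threshold, 41 were no longer called, 16 became called and 12 changed sign, in 16 genes. The count of probes called was 8145 with median scaling and 8899 with all 16 arrays, and 10773 of 23982 with no filter on dim probes. The count past 2-fold was 3000 with no background correction, 3201 with an offset of 50 and 4658 with the authors' values. Leaving out 1 array gave 8391 to 8593 called and 3893 to 4126 past 2-fold. The median difference was 0.10 with median scaling, -0.085 with the authors' values, 0.023 with no background correction, 0.027 with an offset of 50, -0.0015 with no filter, 0.048 with detection on all 4 arrays, and 0.00092 to 0.068 with 1 array left out. Signs turned for Arpc1a (-0.0056) and Pgam1 (-0.13) with the authors' values, for Slc25a5 with those (0.12) and with median scaling (0.28), for Cox8a with median scaling (0.15) and for Phka2 with array weights (0.026). With 1 array left out, or heart 2 and spleen 1 together, the values ran from -0.11 to 0.0038 for Hba-a1, from -0.14 to 0.14 for Pgam1, from -0.11 to 0.041 for Phka2 and from -0.10 to 0.68 for the median of the liver plasma list. The cause was not tested.

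Deviations from the organ mean correlated at 0.06, 0.05, 0.0045 and 0.12 between heart and spleen arrays of the same replicate number. Pairs of unlike number ran from -0.126 to 0.141. With so few arrays these values cannot decide whether a shared number means a shared mouse. With the number as a replicate block 8654 probes were called and 4021 were past 2-fold. Probes near the background limit what can be seen, since a level below detection gives only a bound.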
